A study of Rattus norvegicus with 2 samples.

Results

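Adrenomedullin is a vasodilator peptide made by vascular smooth muscle cells, and its gene Adm is one of the best known targets of the hypoxia-inducible factor (HIF). Adm was set here beside 6 other genes of the HIF pathway, Hif1a, Vegfa, Bnip3, Kdm3a, P4ha1 and Egln3. The members are the probe sets, the groups of array probes that read 1 transcript together, whose single annotated rat symbol is one of these 7. They were chosen by their symbols, with earlier results of these data known. They number 7 of the 10411 genes and 9 of the 15923 probe sets on the array. Hif1a and Vegfa are read by 2 probe sets each and the other 5 genes by 1 each. No probe set annotated to several genes carried one of the 7 symbols. Adm was selected on its measured log2 ratio between these arrays, being higher with GLUT1, so its difference is given as a description and supports nothing further.

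The cells were A7r5, an established smooth muscle line that was derived from the aorta of rat embryos. The GLUT1 pool was infected for 72 hours with an adenovirus that carries the human cDNA of the glucose transporter GLUT1, and the control pool for the same time with an empty adenovirus. Both had a multiplicity of infection of 10 and medium with 5.5 mM glucose, and each pool combined RNA from 3 days and went onto 1 array. The groups were taken from the sample titles, since the description field names GLUT1 for both samples, and the sign of every ratio below rests on those titles. The rat Slc2a1 probe set, for the gene of GLUT1, read 3121 in the GLUT1 pool and 2902 in the control pool, a log2 ratio of 0.11; the vector carried human cDNA, so this does not check the titles. There are thus 2 arrays and no replicates, and no p-value, standard error or SD between samples can be given for any value below. GLUT1 protein was checked by immunoblot per the labels' protocols, and no protein value is used here. In a bulk sample, fewer cells that express a gene and less RNA per cell cannot be told apart.

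HIF is a pair of proteins, an oxygen-regulated alpha subunit such as that encoded by Hif1a and a stable partner encoded by Arnt. When oxygen is present, prolyl hydroxylases of the Egln family mark the alpha subunit for destruction by a ubiquitin ligase built around Vhl, so that HIF activity is set largely at the protein level. When the subunit is stable, the pair binds short DNA motifs called hypoxia response elements and turns on genes of vessel growth and tone, glucose use, mitochondrial turnover and matrix assembly. The array reads only the mRNA of these genes.

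The promoters of 3 members are shown because they mark the ends of a simple count. Adm is the member with the ratio farthest from 0, and Bnip3 and P4ha1 hold the most copies of the core of the hypoxia response element. Each line gives the 250 bases before the annotated start, 5′ to 3′ on the gene's strand, from RefSeq on build GRCr8. Capitals mark the cores ACGTG and GCGTG on either strand, and a CACGTG holds ACGTG on both strands and was counted once. The Adm stretch is chr1:174179950-174180199, plus strand, the Bnip3 stretch chr1:203154963-203155212, minus strand, and the P4ha1 stretch chr20:27844796-27845045, plus strand.
Adm: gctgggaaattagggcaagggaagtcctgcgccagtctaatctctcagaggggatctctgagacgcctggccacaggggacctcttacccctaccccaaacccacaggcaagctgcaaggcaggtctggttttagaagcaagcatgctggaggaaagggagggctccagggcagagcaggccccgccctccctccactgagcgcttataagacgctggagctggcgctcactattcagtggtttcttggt
Bnip3: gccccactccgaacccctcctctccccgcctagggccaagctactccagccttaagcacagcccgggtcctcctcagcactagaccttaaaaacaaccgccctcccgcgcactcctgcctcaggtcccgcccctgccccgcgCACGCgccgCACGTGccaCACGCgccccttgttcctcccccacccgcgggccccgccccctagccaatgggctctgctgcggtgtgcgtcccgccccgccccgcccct
P4ha1: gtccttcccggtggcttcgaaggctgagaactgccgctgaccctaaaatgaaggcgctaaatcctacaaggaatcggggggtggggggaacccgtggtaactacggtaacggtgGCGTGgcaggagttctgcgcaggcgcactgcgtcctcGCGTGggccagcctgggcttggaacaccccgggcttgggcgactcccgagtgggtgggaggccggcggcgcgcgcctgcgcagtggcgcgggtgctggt
The count itself used windows of 300 bases, which add 50 bases after the start. No core was in the windows of Adm, Vegfa and Egln3. Hif1a had 2 cores, Kdm3a had 1 in one of its 2 listed promoters, Bnip3 had 3, and P4ha1 had 3, of which 1 lies after the start and outside the stretch shown. Over all 33469 promoters of the table, 41.6% held at least 1 core. Counted by gene, 4 of the 7 members had a core. So did 67.0% of 5213 genes above the brightness filter described below, and a match is thus common. A window without a match says only that these letters are not in it.

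Adm had the log2 ratio farthest from 0 of the 7 genes. Its probe set 1387219_at read an intensity of 654 in the GLUT1 pool, against 467 in the control pool. This is 1.40-fold, a log2 ratio of 0.49, which here is always the log2 of GLUT1 over control after a small rescaling of the GLUT1 array. A probe set counted as measured when the mean log2 intensity of both arrays reached the median of all probe sets, which corresponds to an intensity of 507. The 2 Adm values lie on either side of that line, and their log2 mean corresponds to an intensity of 553. Adm therefore passed the filter through its value in the GLUT1 pool.

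Among all measured genes Adm ranked 11 of 6114 from the top. Just above it stood Vps9d1 at a log2 ratio of 0.49 and Elfn2 at 0.50, and just below it Arhgef7 at 0.48 and Ankrd9 at 0.47. A log2 ratio at least as far below 0 was found in 17 genes. The size was also set against probe sets of like brightness, because dim probe sets scatter more. Among the 501 measured probe sets nearest to Adm in brightness, 3 including Adm had a ratio as high, and 11 had one as far below 0. Adm lay 2.43 local spreads above their median, where a local spread is the scaled median absolute deviation of those probe sets. By this measure 71 measured genes, Adm included, were as far up and 77 as far down.

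The genes whose 2 log2 intensities came closest to those of Adm were Cdkn2a, at 634 in the GLUT1 pool and 461 in the control pool, then Cdk20, Kctd1, Calml5 and Plekhg5. Their distances ran from 0.049 to 0.094 log2 units over the 2 arrays. Cdkn2a encodes the cell cycle inhibitor p16 and the p53 regulator Arf. With 2 arrays this likeness is no more than a similar brightness and a similar ratio, and the ratios of these 5 genes lay between 0.38 and 0.46.

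**Figure D1:**
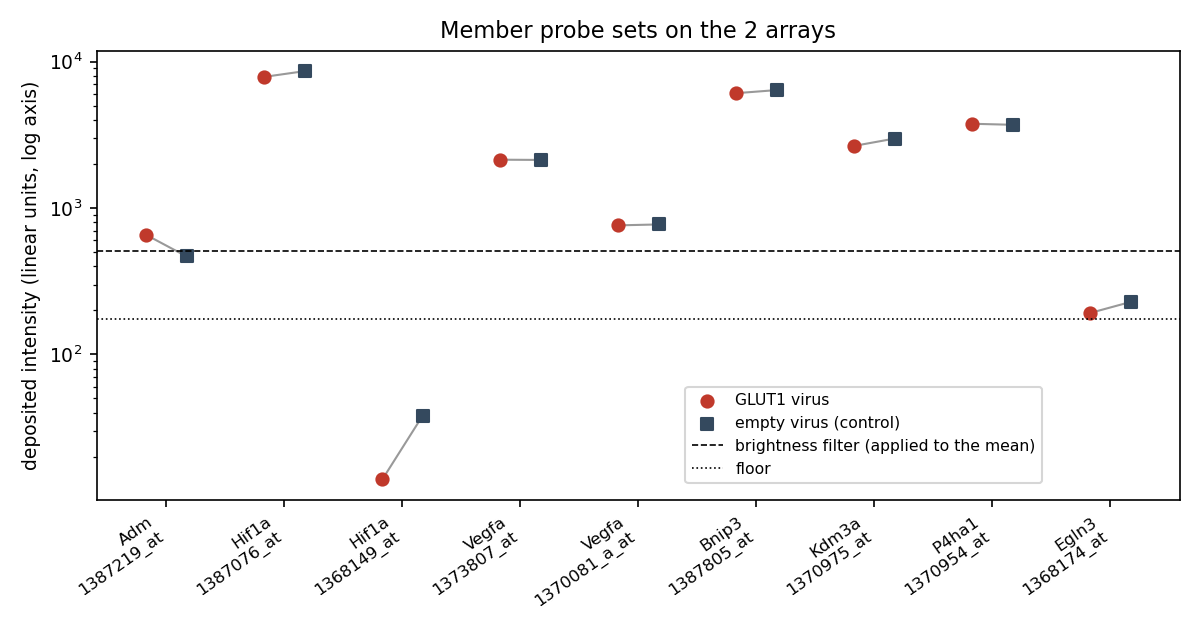
Deposited intensity (log axis) of the 9 member probe sets in the GLUT1 pool (red circles) and the control pool (dark squares), 1 array each. The dashed line is the brightness filter, 507, which was applied to the mean of both arrays, and the dotted line the floor, 175. Adm read 654 in the GLUT1 pool and 467 in the control pool, while the pairs of Vegfa, Bnip3 and P4ha1 are nearly level.

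Hif1a encodes the oxygen-regulated HIF-1 alpha subunit. Its probe set 1387076_at read 7870 in the GLUT1 pool and 8607 in the control pool, a log2 ratio of -0.13, or 1.51 local spreads below probe sets of like brightness. The second Hif1a probe set, 1368149_at, read 14 in the GLUT1 pool and 38 in the control pool. Both values lie below the floor of 175 at which dim intensities were set equal, so this probe set gives no ratio. Both Hif1a probe sets carry the same annotation, and 1 of them was dark on both arrays.

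Egln3 encodes PHD3, a prolyl hydroxylase that acts on HIF alpha subunits and is itself induced by HIF. Its probe set read 192 in the GLUT1 pool and 228 in the control pool. The log2 ratio of -0.25 stands on values near the floor and below the filter. Of 3543 probe sets that were likewise below the filter but above the floor on both arrays, 34.5% had a log2 ratio of at least 0.25 in either direction. The low Egln3 value is thus of a size common among these dim probe sets.

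Vegfa encodes the vascular endothelial growth factor that HIF induces in most cell types. Probe set 1373807_at read 2138 in the GLUT1 pool and 2130 in the control pool, a log2 ratio of 0.0064. Probe set 1370081_a_at read 761 in the GLUT1 pool and 772 in the control pool, a log2 ratio of -0.02. Vegfa thus lay close to probe sets of like brightness in both readings, at 0.053 local spreads above and 0.090 below their median.

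Bnip3 encodes a receptor on the outer mitochondrial membrane that promotes the removal of mitochondria by autophagy. It read 6089 in the GLUT1 pool and 6390 in the control pool, a log2 ratio of -0.07. Kdm3a encodes a demethylase of histone H3 lysine 9. It read 2658 in the GLUT1 pool and 2980 in the control pool, a log2 ratio of -0.16 and 1.51 local spreads below its neighbours in brightness. Kdm3a was the lowest of the measured members. P4ha1 encodes a catalytic subunit of the prolyl hydroxylase that stabilises the collagen triple helix. It read 3762 in the GLUT1 pool and 3702 in the control pool, a log2 ratio of 0.02.

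Of the 9 member probe sets 7 were measured, and they belong to 6 of the 7 genes. The median of their log2 ratios was -0.02, with 3 above and 4 below 0. The median of all 7939 measured probe sets was -0.00039, with 49.9% above 0. Without Adm the 6 remaining measured member probe sets had a median of -0.04, ran from -0.16 to 0.02, and lay 2 above and 4 below 0. Adm was the 1 member probe set at a log2 ratio of 0.25 or more, a size reached by 4.16% of measured probe sets. No measured member was at -0.25 or less, where 3.77% of measured probe sets lay. None reached 2-fold, as did 0.0252% of measured probe sets. The choice of Adm fixed the first of these counts, so nothing is read from it.

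**Figure D2:**
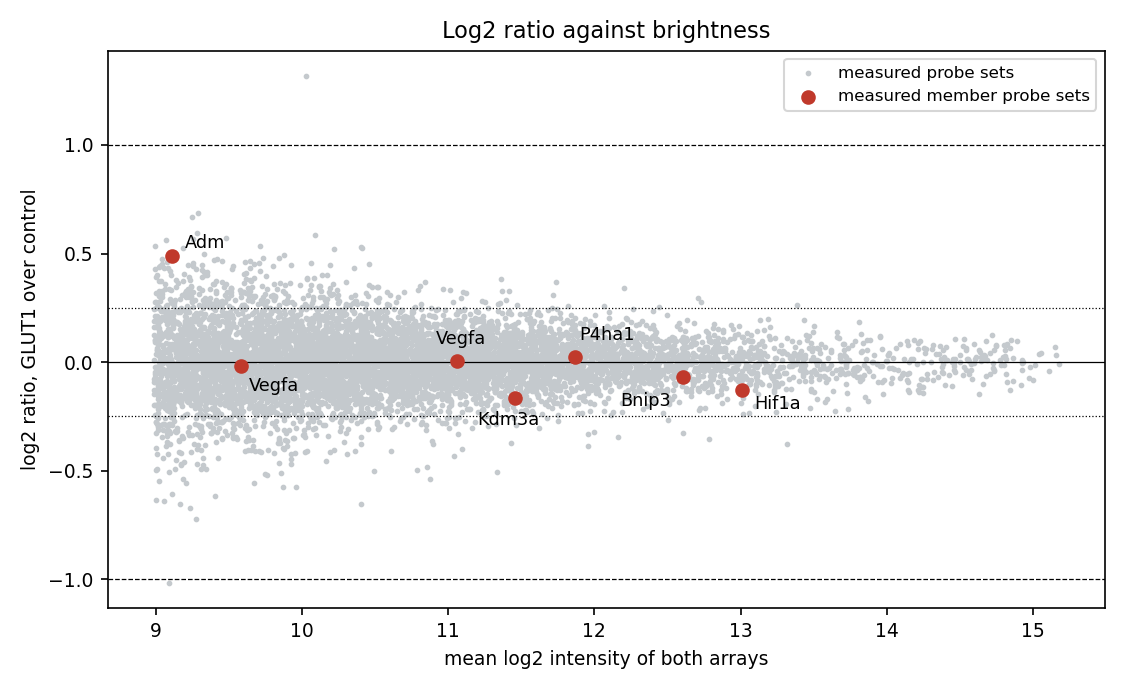
Log2 ratio, GLUT1 over control, against mean log2 intensity for 7939 measured probe sets (grey) and the 7 measured member probe sets (red). Dotted lines mark 0.25 and dashed lines 2-fold in either direction. Adm, at 0.49, stands at the dim end where the cloud is widest, and the other members lie between -0.16 and 0.02.

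The machinery through which adrenomedullin acts gave small differences or dim signals. The peptide signals through the receptor encoded by Calcrl together with a partner protein encoded by Ramp2 or Ramp3. Calcrl read 200 in the GLUT1 pool and 242 in the control pool, below the filter, and Ramp3 was below the floor at 127 in the GLUT1 pool and 85 in the control pool. Ramp2 was measured at 1376 in the GLUT1 pool and 1438 in the control pool, a log2 ratio of -0.06. Pam, the enzyme that amidates the peptide, read 3935 in the GLUT1 pool and 4032 in the control pool, a log2 ratio of -0.03. A Pam probe set below the filter gave -0.33, from 127, under the floor, in the GLUT1 pool and 220 in the control pool. Another Pam probe set was below the floor on both arrays. Mme, the membrane protease neprilysin, which cleaves small peptides, had a log2 ratio of -0.12. Of the 12 genes of this list on the array 5 were measured, 2 above and 3 below 0, with a median log2 ratio of -0.03.

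Larger ratios in this list came from dim probe sets and were picked out after their values were seen. Ramp1, whose product pairs with that of Calcrl to form the receptor for the related peptide CGRP, read 335 in the GLUT1 pool and 502 in the control pool, a log2 ratio of -0.58. Iapp, which encodes the related peptide amylin, read 340 in the GLUT1 pool and 210 in the control pool, a log2 ratio of 0.70. Of 3543 probe sets below the filter but above the floor on both arrays, 8.44% differed by 0.5 or more in either direction. Ramp1 lies in the brighter part of that range, and the share at its own brightness was not taken.

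The measured genes that control HIF stayed close to 0. Of 17 oxygen-sensing genes on the array 11 were measured, 5 above and 6 below 0, and the median log2 ratio was -0.0034. Egln1, the main HIF prolyl hydroxylase in most cells, read 2602 in the GLUT1 pool and 2473 in the control pool, a log2 ratio of 0.07, and a second probe set below the filter gave -0.23. Egln2 had a log2 ratio of -0.11 and Vhl one of -0.02. By brightest probe set, the farthest measured genes besides members were the coactivator gene Crebbp at 0.17 and Arnt2, a relative of Arnt, at -0.13. A second, dimmer Arnt2 probe set gave 0.09, and a dimmer measured probe set of Ep300 gave -0.15. Arnt itself was below the floor, at 134 in the GLUT1 pool and 144 in the control pool, and so was Epas1, which encodes HIF-2 alpha, at 130 in the GLUT1 pool and 123 in the control pool. Cul2, the scaffold of the Vhl ligase, read 262 in the GLUT1 pool and 182 in the control pool, a log2 ratio of 0.53 below the filter, and was picked out after its value was seen.

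The list of vessel-related HIF targets, their relatives and their receptors had a median log2 ratio of 0.01. Of its 17 genes on the array 8 were measured, 6 above and 2 below 0. The ends of the list were Vegfb, a relative of Vegfa, at 3390 in the GLUT1 pool and 2986 in the control pool, a log2 ratio of 0.18, and Nos2, the inducible nitric oxide synthase, at 675 in the GLUT1 pool and 780 in the control pool, a log2 ratio of -0.21. Hmox1, encoding haem oxygenase, had a log2 ratio of 0.14, and Edn1, which encodes the vasoconstrictor endothelin-1, one of 0.02. The receptor genes Flt1 and Kdr were below the filter on these arrays of smooth muscle cells.

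The list of mitochondrial and mitophagy genes, Bnip3 included, had a median log2 ratio of -0.04 over 7 of 10 genes, 2 above and 5 below 0. Bnip3l, which encodes the mitophagy receptor closest to that of Bnip3, gave -0.04 and -0.05 in its 2 probe sets. Pdk1, the kinase that restrains pyruvate dehydrogenase and is a standard HIF target, read 1744 in the GLUT1 pool and 1764 in the control pool, a log2 ratio of -0.02. By brightest probe set, the farthest were Lonp1, a mitochondrial protease, at 0.17 and Becn1, an autophagy gene, at -0.09. A dimmer measured probe set of Mxi1 gave 0.13.

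All 8 genes of collagen hydroxylation and crosslinking on the array were measured, 3 of them above and 5 below 0, and their median log2 ratio was -0.02. By brightest probe set, the farthest were the lysyl hydroxylase genes Plod1 at 0.11 and Plod2 at -0.09. A dimmer measured probe set of Lox gave -0.15. P4ha2, the nearest relative of P4ha1, gave -0.06, with a dimmer measured probe set at -0.32 from 486 in the GLUT1 pool and 605 in the control pool. Its probe sets thus differed in size while sharing a direction. P4hb, the partner subunit of both, had a log2 ratio of -0.05.

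Kdm3a and its relatives, the genes with a JmjC domain, had a median log2 ratio of -0.02 over 8 of 9 genes, 4 above and 4 below 0. By brightest probe set Kdm3a was the lowest of them, and Jmjd6, which encodes a JmjC lysyl hydroxylase, the highest at 0.20. A dimmer measured probe set of Kdm5a was lower than Kdm3a, at -0.21 from 880 in the GLUT1 pool and 1016 in the control pool. Kdm4b, a HIF target like Kdm3a, had a log2 ratio of 0.14 and Kdm3b one of -0.07.

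HIF targets of glucose use had a median log2 ratio of 0.0080 over 14 of 17 genes, 8 above and 6 below 0. Of these 14, by brightest probe set, hexokinase gene Hk1 and the phosphofructokinase subunit gene Pfkp were farthest from 0, at 0.20 and 0.18. Ldha, encoding lactate dehydrogenase A, and Pgk1, encoding phosphoglycerate kinase, stood at 0.10 and -0.09. The glucose transporter gene Slc2a3 gave 0.0018 in its brighter probe set, and -0.28 in a second one that read 958 in the GLUT1 pool and 1164 in the control pool. Below the filter, Aldoc read 258 in the GLUT1 pool and 122, under the floor, in the control pool, a log2 ratio of 0.56. Pfkfb4, also below it, gave 0.26 and -0.31 in its 2 probe sets, and Slc16a3 gave 0.12. With no filter the median of this list was 0.08. The remaining HIF targets had a median of -0.06 over 12 of 20 genes, 4 above and 8 below 0. By brightest probe set, Bhlhe40, a transcriptional repressor, was the highest at 0.19 and Wsb1, a ubiquitin ligase subunit, the lowest at -0.18. Ndrg1 and Ddit4, a pair of genes much used as hypoxia markers, stood at -0.10 and 0.09 and were picked out with their values in view. Id2, also picked out afterwards, gave -0.18 and 0.19 in its 2 measured probe sets.

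Members aside, 67 genes of these 8 lists were measured. They ran from -0.21 to 0.20, 31 above and 36 below 0, and their median log2 ratio was -0.0090. Over all measured genes the median was 0.0060 and 52.1% lay above 0. By its brightest probe set, none of the 67 reached 0.25 in either direction, where 4.22% of all measured genes were at least 0.25 above and 3.25% at least 0.25 below 0. Among 15 further measured probe sets of these genes 2 did, those of P4ha2 at -0.32 and of Slc2a3 at -0.28. The 67 genes were brighter, with a median log2 intensity of 11.42 against 10.65 for all measured genes, and bright probe sets scatter less. The part of brightness in this count was not tested. The lists were also drawn up with earlier results of these data known, so the count is only a description.

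**Figure D3:**
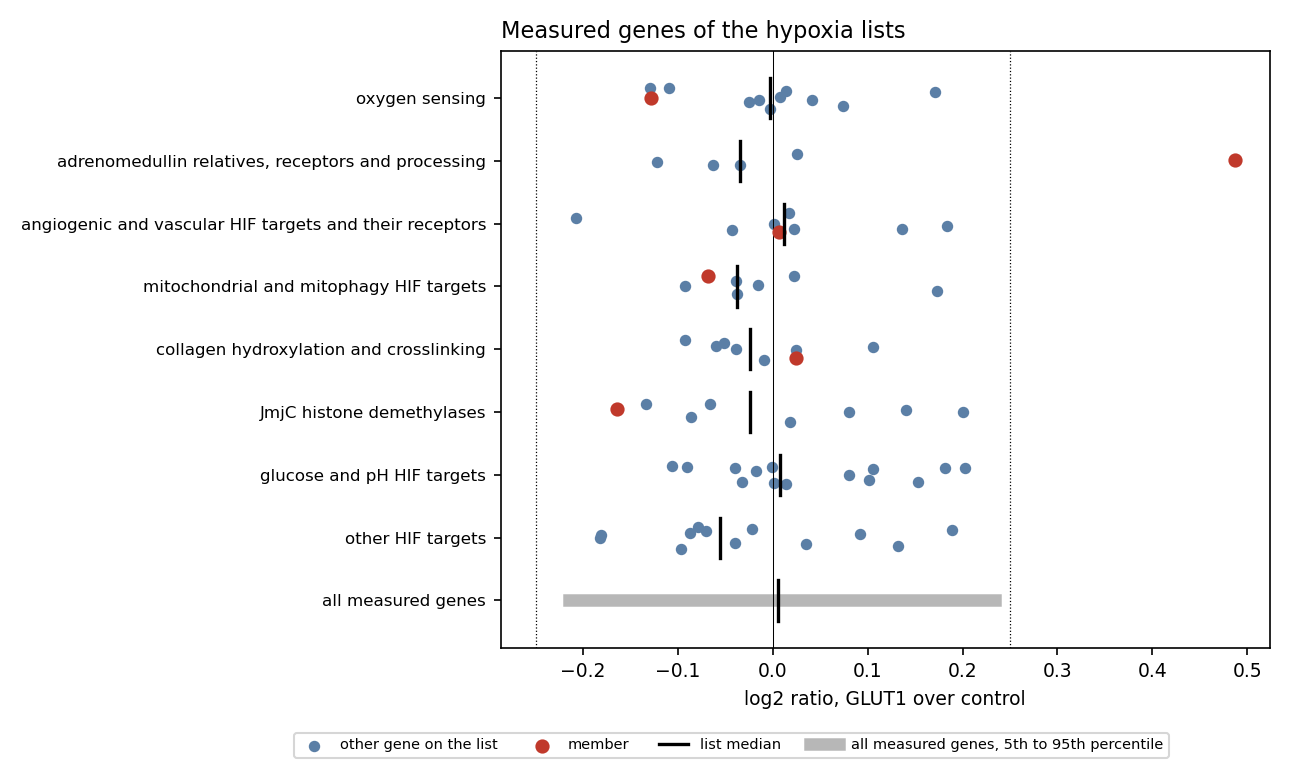
Log2 ratio, GLUT1 over control, of the measured genes of 8 hypoxia lists, 1 point per gene from its brightest probe set, with members in red. Black bars are medians, the grey bar spans the 5th to 95th percentile of all 6114 measured genes, and dotted lines mark 0.25. Adm, selected for its high ratio, is at 0.49 the 1 point outside the dotted lines.

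Ratios were also set beside the promoter cores. Of 5213 measured genes with a promoter in the table, 1721 had no core and a median log2 ratio of 0.0039, 1699 had 1 core and a median of 0.012, and 1793 had 2 or more and a median of 0.0075. The shares at 0.25 or more were 4.18%, 3.94% and 5.02% in that order, and the shares at -0.25 or less were 3.78%, 2.94% and 2.84%. Split by ACGTG alone, 3.78% of the 1507 genes with it and 4.64% of the 3706 without it were at 0.25 or more, and 2.39% with it and 3.51% without it at -0.25 or less. Adm and Vegfa fall in the first class, and Hif1a, Bnip3 and P4ha1 in the last. These are descriptions without a test.

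**Figure D4:**
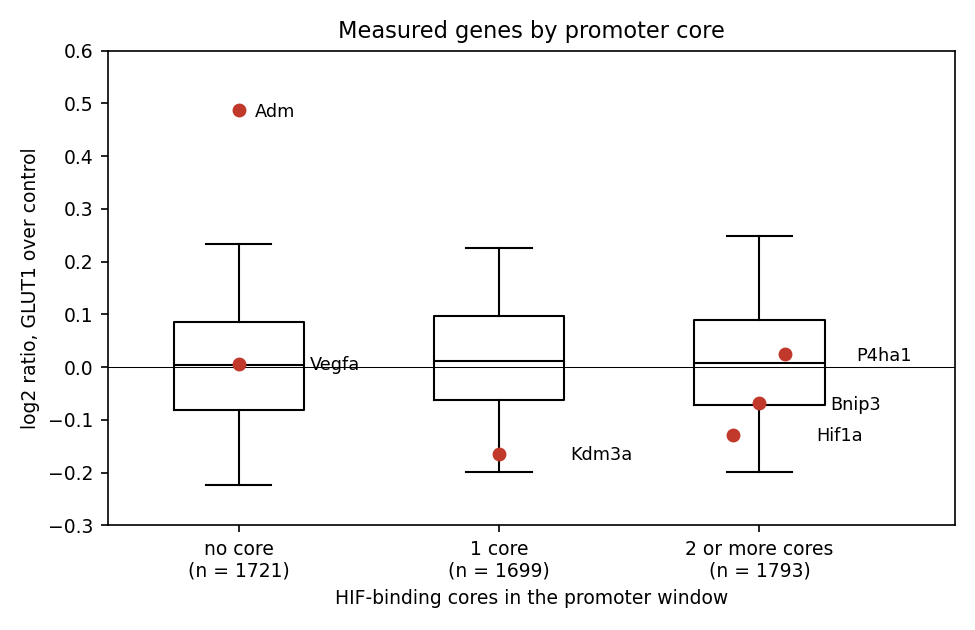
Log2 ratio, GLUT1 over control, of measured genes by the number of HIF-binding cores in their 300-base promoter windows (boxes, quartiles and median; whiskers, 5th to 95th percentile), with the 6 measured member genes in red. The 3 medians lie between 0.0039 and 0.012. Adm lies above the whisker of the class without a core, but it was selected for its high ratio, so nothing about the class is read from this.

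The smooth muscle identity of the cells was checked on 8 markers, of which 7 were measured. Acta2 read 16687 in the GLUT1 pool and 16303 in the control pool, while Myh11, the myosin of mature smooth muscle, was below the filter at 228 in the GLUT1 pool and 227 in the control pool. Smtn and Cald1 were the measured smooth muscle markers farthest from 0, at log2 ratios of 0.19 and -0.13. The summed intensity of the 8 was 49205 in the GLUT1 pool and 49691 in the control pool. Of 4 endothelial markers 1 was measured, Esam, which read 479 in the GLUT1 pool and 584 in the control pool, a log2 ratio of -0.28. The endothelial list had sums of 783 in the GLUT1 pool and 901 in the control pool, and Pecam1 was below the floor at 36 in the GLUT1 pool and 26 in the control pool. Of 6 leukocyte markers 2 were measured, Cd14 at a log2 ratio of 0.18, from 1398 in the GLUT1 pool and 1235 in the control pool, and Aif1 at 0.14, from 719 in the GLUT1 pool and 655 in the control pool. Below the filter, Cd68 read 249 in the GLUT1 pool and 323 in the control pool, a log2 ratio of -0.37. Lyz2, also below it, read 406 in the GLUT1 pool and 450 in the control pool, a log2 ratio of -0.15. The leukocyte markers thus did not share a direction. The leukocyte list had sums of 2969 in the GLUT1 pool and 2780 in the control pool, and Ptprc was below the floor at 77 in the GLUT1 pool and 62 in the control pool. Of 4 epithelial markers 1 was measured, the keratin gene Krt8 at a log2 ratio of 0.07. Krt8 was bright, at 6500 in the GLUT1 pool and 6193 in the control pool. It made up most of the epithelial sums, 6734 in the GLUT1 pool and 6369 in the control pool. The part of such markers in the difference of Adm was not tested.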

How the data were processed

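Total RNA of 2 pools of A7r5 cells was read on 1 array each. The authors deposited 1 linear intensity per probe set and array, as whole numbers, some below 0. The intensities of both arrays have the same median and quartiles, so the authors had already equalised them. The method of background correction and normalization and its software remain unknown (not given in the sources used here). Gene names came from the array's annotation and were brought up to date by gene ID (12748 of 12783 probe sets with 1 gene matched GRCr8); 312 with several genes and 2771 with none were left out of gene counts. 57 control probe sets were left out.

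The GLUT1 array was raised by 0.00095 log2 units so that the median ratio of the brighter probe sets was 0. Intensities were floored at the 25th percentile (175) and log2 was taken. A probe set was measured at or above the median mean log2 value, 8.99. A gene is its brightest probe set. Sizes of 0.25 log2 units and 2-fold were counted. The local spread used 501 neighbouring probe sets. Python 3.11.15, numpy 2.4.6 and pandas 2.3.3 were used, and the steps were tested on simulated data. The number of arrays, 1 per group, limits the precision.

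The members and lists were chosen with earlier results of these data known. Genes named are all members, the 2 other measured genes with the largest absolute ratio of each of the 8 pathway lists, and the 5 nearest to Adm over the log2 intensities; others are examples. Alternatives in scaling, floor, filter and probe set averaging were tried.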

Additional observations from a re-analysis of the deposited data

How the results depend on the processing

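No paired analysis was possible because there was 1 array for the GLUT1 pool and 1 for the control pool. Leaving out the scaling, quantile normalization and floors at the 10th and 40th percentiles left the Adm log2 ratio between 0.485 and 0.487, which says little about stability, since the deposited values were already equalised and Adm lies above those floors. Kdm3a stayed between -0.17 and -0.16 and the brighter Hif1a probe set between -0.13 and -0.12, while averaging its 2 probe sets gave -0.06 because the dark one enters as 0. Egln3 became 0 with the floor at the 40th percentile, which covers both of its values. The median of the member probe sets ran from -0.07 to -0.02 over 6 alternatives, and a brightness filter at the 75th percentile left 5 member probe sets, without Adm. Averaging turned Vegfa to -0.0067. List medians changed sign or became 0 in 5 cases, all by less than the typical local spread. The counts of all genes turned on the filter. In the main setting 1 gene was higher and 0 were lower by 2-fold, and 258 were higher and 199 lower by 0.25 log2 units. With no filter, 5 genes were higher and 4 lower by 2-fold, and 740 were higher and 653 lower by 0.25 log2 units, where dim probe sets enter. With the filter at the 75th percentile, 0 were higher by 2-fold, 29 were higher and 34 lower by 0.25. With the floor at the 40th percentile, 1 was lower by 2-fold.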
